A study of Mus musculus with 20 samples.

Results

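Taar7 and Taar8 are the expanded branches of the trace amine-associated receptors, and they were followed here as the 8 probe sets that the array annotation assigns to Taar7a, Taar7b, Taar7d, Taar7e, Taar7f, Taar8a, Taar8b and Taar8c. Membership was set by gene symbol, with earlier results of these data known, and each gene had 1 probe set among the 22206 analysed. The tissue was the olfactory mucosa of S100a5-tauGFP mice of both sexes, aged 7 to 12 weeks, in which green fluorescent protein (GFP) reports S100a5, a gene for a calcium-binding protein that olfactory neurons transcribe more when they are active. All mice spent 40 h alone in chambers with clean air flowing at 3.1 L/min. From 26 h on, odor mice were given an artificial cigarette smoke odor and vehicle mice filtered air, in both cases for 10 s every 20 min. The design text of the series gives bourgeonal in place of the smoke odor, and the sample labels were followed. Mucosa from 3 mice was pooled and sorted by flow cytometry, and each pool gave 1 GFP+ and 1 GFP- sample, so that the groups were odor GFP+, odor GFP-, vehicle GFP+ and vehicle GFP-, with 5 samples each from 10 pools and 30 mice. Every value is a log2 signal of a Clariom S array, a difference of 1 being a factor of 2, and n is the number of pools.

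Trace amine-associated receptors are G protein-coupled receptors of the amine receptor family. In the mouse all of them except Taar1 are made by olfactory sensory neurons, each of which uses 1 receptor gene and sends its axon, for most of this family, to the dorsal olfactory bulb. They signal through the same olfactory G protein and cyclic nucleotide-gated channel as odorant receptors. The Taar7 and Taar8 branches arose by tandem duplication, and several mouse Taar7 receptors are known to respond to tertiary amines in cell culture.

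The genes lie side by side in 1 cluster on chromosome 10, in the order Taar6, Taar7a, Taar7b, the pseudogene Taar7c-ps, Taar7d, Taar7e, Taar7f, Taar8a, Taar8b, Taar8c and Taar9 by RefSeq's annotation of GRCm38.p6. All 5 Taar7 models are 1077 bases long and those of Taar8a and Taar8b 1035 bases. RefSeq windows of 300 bases around the start of the gene model were at hand for 6 of the 8 genes, all but Taar8a and Taar8c. In each of the 6 an ATG stood at the model's start, so the windows hold 250 bases before the start codon and the first 50 coding bases, and they are not known to include the transcription start. The 5 Taar7 windows are shown because the results below turn on how these genes part from each other. They come from GRCm38.p6, 5′ to 3′ on the gene's own strand, with the coding bases in capitals. Their positions are chr10:23993432-23993731 on the minus strand for Taar7a, and on the plus strand chr10:23999689-23999988 for Taar7b, chr10:24026972-24027271 for Taar7d, chr10:24037364-24037663 for Taar7e and chr10:24049260-24049559 for Taar7f.
Taar7a: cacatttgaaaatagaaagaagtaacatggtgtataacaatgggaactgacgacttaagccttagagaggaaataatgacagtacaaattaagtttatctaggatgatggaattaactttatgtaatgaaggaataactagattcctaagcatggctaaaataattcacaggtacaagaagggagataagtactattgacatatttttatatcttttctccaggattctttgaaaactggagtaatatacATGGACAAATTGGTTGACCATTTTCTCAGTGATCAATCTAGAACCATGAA
Taar7b: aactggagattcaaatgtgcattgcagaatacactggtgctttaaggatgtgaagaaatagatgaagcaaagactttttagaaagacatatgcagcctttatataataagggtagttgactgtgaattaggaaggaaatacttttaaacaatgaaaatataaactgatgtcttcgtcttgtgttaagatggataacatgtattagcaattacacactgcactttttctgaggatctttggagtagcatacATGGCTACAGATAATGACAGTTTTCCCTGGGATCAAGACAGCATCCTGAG
Taar7d: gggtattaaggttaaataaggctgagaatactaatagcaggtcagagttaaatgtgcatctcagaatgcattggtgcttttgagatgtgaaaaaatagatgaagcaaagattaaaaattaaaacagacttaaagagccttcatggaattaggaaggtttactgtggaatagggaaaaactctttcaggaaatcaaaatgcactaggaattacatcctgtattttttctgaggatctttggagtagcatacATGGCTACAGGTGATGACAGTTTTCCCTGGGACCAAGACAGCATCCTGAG
Taar7e: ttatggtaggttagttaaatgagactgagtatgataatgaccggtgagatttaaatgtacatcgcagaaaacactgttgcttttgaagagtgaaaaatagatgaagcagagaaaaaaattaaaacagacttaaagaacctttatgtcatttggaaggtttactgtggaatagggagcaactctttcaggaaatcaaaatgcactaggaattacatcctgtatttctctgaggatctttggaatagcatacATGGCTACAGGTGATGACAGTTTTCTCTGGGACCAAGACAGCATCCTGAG
Taar7f: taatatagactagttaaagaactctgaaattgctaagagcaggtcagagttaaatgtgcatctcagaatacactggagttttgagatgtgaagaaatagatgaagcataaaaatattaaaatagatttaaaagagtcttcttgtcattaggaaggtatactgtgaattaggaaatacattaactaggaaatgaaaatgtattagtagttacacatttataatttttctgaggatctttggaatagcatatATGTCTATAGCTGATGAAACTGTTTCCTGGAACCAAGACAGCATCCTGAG

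Taar7d and Taar7e shared 49 of the first 50 coding bases (98%) and, in a global alignment, 84.4% of the columns before the start codon. Taar7f was next to them, with 78.8% of the upstream columns identical to Taar7d and 75.4% to Taar7e, and with 42 and 41 of 50 coding bases. Taar7b shared 47 coding bases with Taar7d and 46 with Taar7e, and 58.4% and 56.3% of the upstream columns, while over all pairs outside the trio of Taar7d, Taar7e and Taar7f the upstream share was 51.1% to 58.4%. Taar7a shared 25 to 31 coding bases with the other Taar7 genes. The sequence TAATGA, of a kind bound by homeodomain proteins, was found on either strand in 4 of the 6 windows (Taar7a, Taar7b, Taar7e and Taar7f) and in 9.78% of 32851 RefSeq windows of this length. In Taar7b it lay only in the coding bases. TAATTA was found in 1 of 6, that of Taar8b, against 5.29% of all windows, and CCCNNGGG, the core of sites for Ebf proteins, in 0 of 6 against 13.7%. The 6 windows belong to related genes and hold 30.7% to 37.3% G and C, and the windows of all genes were not matched for either. Paralogs this close can share array signal, and the extent of it was not tested, as probe sequences were not used here.

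On all 20 arrays the medians of the background control probe sets were between 5.14 and 6.34, and the arrays of replicate 5, 1 in each group, stood apart with gene medians of 7.03 to 7.46 against 6.06 to 6.39 on the other 16. Signals of Taar7b (7.89 to 12.35), Taar7d (7.61 to 11.19), Taar7e (7.90 to 10.56) and Taar7f (7.28 to 10.99) were above the background control median of their own array on 20 of 20 arrays. Taar7a was at or below it on 4 of 20 arrays, Taar8a on 2, Taar8c on 3 and Taar8b on 7, so differences of these genes are compressed by background and may be understated. The brightness of a probe set also depends on its probes, and levels of different genes are not ranked against each other. S100a5 was higher in GFP+ cells in both conditions, by 2.15 in odor pools (adjusted p = 0.00131) and 1.30 in vehicle pools (adjusted p = 0.0368, both by limma). The mature neuron marker Omp averaged 19.32 ± 0.58 in odor GFP+ and 19.20 ± 0.55 in odor GFP- cells, and 19.17 ± 0.49 in vehicle GFP+ and 18.95 ± 0.70 in vehicle GFP- cells (SD, n = 5 each). These values are near the brightest signals of the arrays, 18.49 to 19.86, where differences may be compressed.

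**Figure D1:**
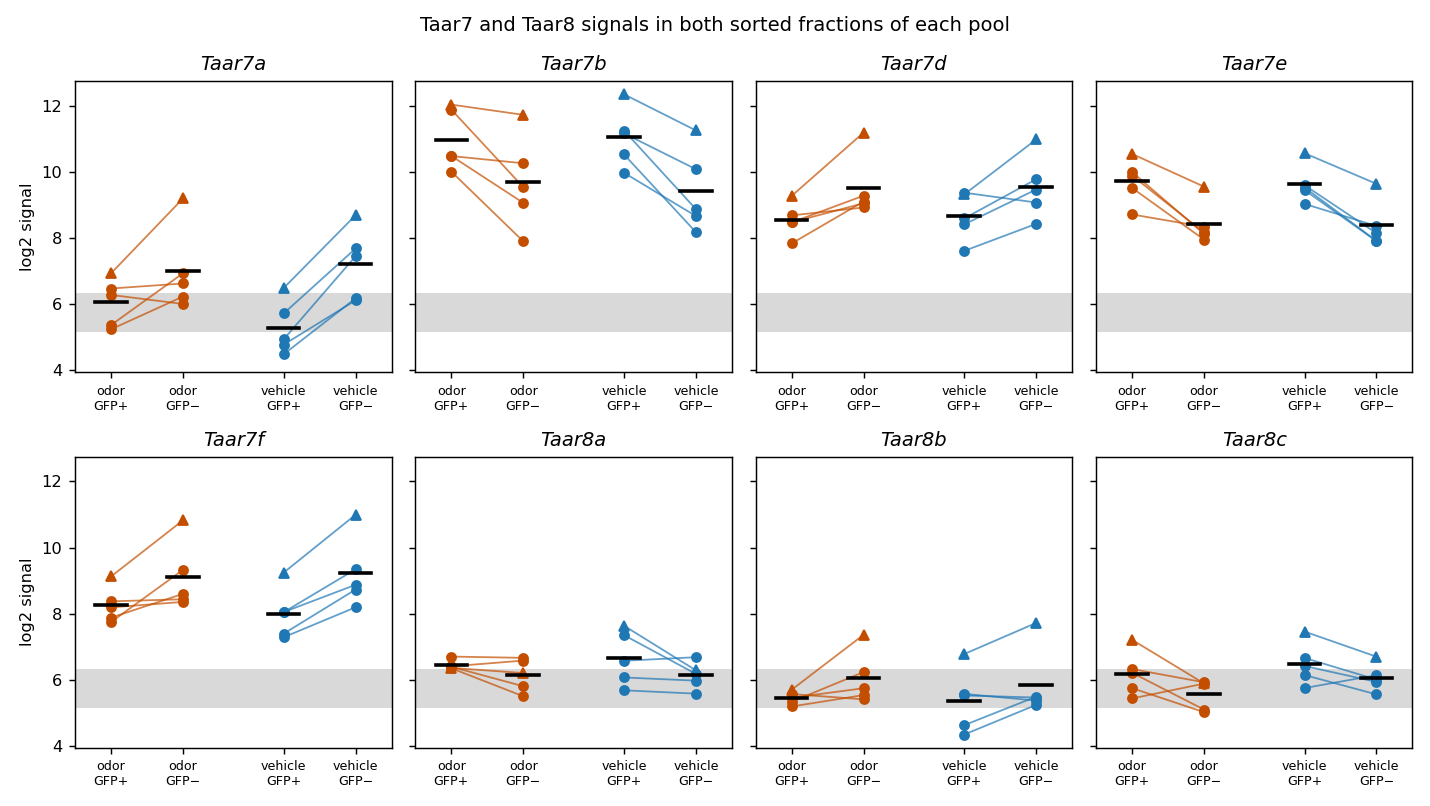
Log2 signal of each Taar7 and Taar8 gene (vertical axis) in odor GFP+, odor GFP-, vehicle GFP+ and vehicle GFP- samples, with lines joining both fractions of a pool, triangles for replicate 5 and black bars for the means of 5 samples. The grey band spans the background control medians of the 20 arrays, 5.14 to 6.34: the lines of Taar7b and Taar7e run down from GFP+ to GFP- in all 10 pools, those of Taar7f run up, and the 3 Taar8 genes lie in or near the band.

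The question of the sort was which receptors are carried by active, GFP+ neurons. The Taar7 genes divided. Taar7b and Taar7e were higher in GFP+ cells in both conditions, while Taar7a and Taar7f were lower in GFP+ cells of vehicle pools. Taar7d pointed the same way as these 2 without passing the test, and no Taar8 gene passed. That is 2 of 8 genes called under odor and 4 of 8 under vehicle, where 7.89% and 9.11% of all probe sets were called. Differences within each pool were tested with limma over all 22206 probe sets, at a Benjamini-Hochberg adjusted p under 0.05.

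Taar7b had signals of 10.48, 11.88, 10.48, 10.00 and 12.03 in odor GFP+ samples 1 to 5, against 10.26, 9.54, 9.06, 7.89 and 11.72 in the odor GFP- samples of the same pools. In vehicle pools it had 11.17, 11.25, 10.53, 9.97 and 12.35 in GFP+ samples, against 10.08, 8.87, 8.17, 8.66 and 11.25 in GFP- samples. Every GFP+ sample lay above its own GFP- partner, although the groups overlapped in both conditions. The mean difference was 1.28 (SE 0.34, adjusted p = 0.0321 by limma, 5 of 5 pools) under odor and 1.64 (SE 0.34, adjusted p = 0.00552 by limma, 5 of 5 pools) under vehicle, a factor of 2.43 and 3.13. The call under odor was narrow: the difference was 1.12 with quantile normalization, and 1.01, 1.25 and 1.07 without odor replicate 2, 3 or 4, with adjusted p-values by limma of 0.0922, 0.158, 0.112 and 0.164. Without both pools numbered 5 it was 1.52 under odor and 1.78 under vehicle, and both passed (adjusted p = 0.0378 and 0.0135 by limma).

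Taar7e had signals of 8.71, 9.51, 9.89, 9.99 and 10.54 in odor GFP+ samples, against 8.33, 7.95, 8.17, 8.12 and 9.55 in odor GFP- samples. In vehicle pools the GFP+ samples had 9.59, 9.52, 9.45, 9.03 and 10.56, against 8.14, 7.91, 7.90, 8.36 and 9.64 in the GFP- samples. Apart from the arrays of replicate 5, which were high in every group, the vehicle fractions did not overlap. The mean difference was 1.30 (SE 0.25, adjusted p = 0.00344 by limma, 5 of 5 pools) under odor and 1.24 (SE 0.25, adjusted p = 0.00433 by limma, 5 of 5 pools) under vehicle. Those differences, a factor of 2.47 and 2.37, became 1.38 and 1.32 without both pools numbered 5 and still passed.

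Taar7a, the neighbour of Taar7b, went the other way. In vehicle pools it had 4.77, 4.93, 4.48, 5.71 and 6.48 in GFP+ samples, against 6.11, 7.44, 6.17, 7.68 and 8.69 in GFP- samples. Its mean difference was -1.94 (SE 0.32, adjusted p = 0.00111 by limma, lower in 5 of 5 pools). It may be understated in size, since 3 of the 5 vehicle GFP+ samples were at or below the background control median of their array. Under odor it had 5.36, 5.23, 6.47, 6.27 and 6.93 in GFP+ samples, against 6.93, 6.22, 6.62, 6.00 and 9.19 in GFP- samples. There the difference of -0.94 (SE 0.32, lower in 4 of 5 pools) did not pass (adjusted p = 0.121 by limma). Pool 4 differed by 0.27, and without odor replicate 4 the value was -1.24 with an adjusted p of 0.042 by limma. Without both pools numbered 5 it was -0.61 under odor, where it also did not pass, and -1.88 under vehicle, where it did.

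Taar7f, at the far end of the Taar7 group, had 8.04, 7.39, 7.28, 8.05 and 9.24 in vehicle GFP+ samples, against 9.34, 8.73, 8.19, 8.87 and 10.99 in vehicle GFP- samples. Its difference there was -1.22 (SE 0.27, adjusted p = 0.00849 by limma, lower in 5 of 5 pools), or a factor of 2.34. The call ended without vehicle replicate 5, where the value was -1.09 and the adjusted p 0.0518 by limma. Odor GFP+ samples had 7.74, 8.19, 7.88, 8.37 and 9.12, against 9.32, 8.35, 8.60, 8.43 and 10.82 in odor GFP- samples. All 5 odor pools were lower in GFP+ cells, with differences of -1.58, -0.17, -0.72, -0.06 and -1.70. The mean of -0.85 (SE 0.27) did not pass (adjusted p = 0.0824 by limma).

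Taar7d, which lies between the pseudogene and Taar7e, had 7.83, 8.47, 8.47, 8.68 and 9.27 in odor GFP+ samples, against 9.10, 9.05, 9.28, 8.92 and 11.19 in odor GFP- samples. In vehicle pools it had 8.59, 9.37, 7.61, 8.41 and 9.32 in GFP+ samples, against 9.78, 9.07, 8.42, 9.46 and 10.98 in GFP- samples. The GFP+ sample was the lower of the pair in 5 of 5 odor pools and 4 of 5 vehicle pools, with mean differences of -0.96 (SE 0.29) and -0.88 (SE 0.29). Neither passed (adjusted p = 0.0683 and 0.0897 by limma). The exception was vehicle pool 2, which differed by 0.30, and without vehicle replicate 2 the differences were -0.96 and -1.18 with adjusted p-values of 0.0256 and 0.0138 by limma. With variances moderated and p-values adjusted over receptors alone both also passed, at adjusted p-values of 0.0286 and 0.0409 by limma. That setting adjusts over fewer tests than the main fit.

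The Taar8 genes stayed within 1 unit on average. Taar8a differed by 0.29 (95% confidence interval -0.26 to 0.85) under odor and 0.52 (-0.03 to 1.08) under vehicle, higher in GFP+ cells in 4 of 5 pools of each condition. Taar8c differed by 0.62 (0.05 to 1.19) and 0.42 (-0.15 to 0.99), also higher in 4 of 5 pools of each. Taar8b had the opposite sign, at -0.61 (-1.21 to -0.01) and -0.49 (-1.09 to 0.11), and was lower in GFP+ cells in 4 of 5 odor and 3 of 5 vehicle pools. Adjusted p-values by limma were 0.249 to 0.708 for these 6 comparisons. Against each array's background control median, Taar8a averaged 0.94 in odor GFP+ and 0.55 in odor GFP- samples, and 1.02 in vehicle GFP+ and 0.57 in vehicle GFP- samples. Taar8b averaged -0.05 in odor GFP+ and 0.46 in odor GFP- samples, and -0.28 in vehicle GFP+ and 0.28 in vehicle GFP- samples. Taar8c averaged 0.69 in odor GFP+ and -0.03 in odor GFP- samples, and 0.84 in vehicle GFP+ and 0.50 in vehicle GFP- samples. So little signal over background leaves changes of Taar8 transcripts poorly measured, and their absence is not shown.

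In counts, 2 of 8 genes rose and 0 fell in GFP+ cells of odor pools, where 2.07% of all probe sets rose and 5.82% fell. In vehicle pools 2 of 8 rose and 2 of 8 fell, where 2.26% of all probe sets rose and 6.86% fell. Odorant receptors are the closer measure, and of 1091 odorant receptor probe sets 30.3% rose and 17% fell under odor and 33.5% rose and 15.6% fell under vehicle. The median difference of the 8 was -0.16 under odor and -0.03 under vehicle, against 0.43 and 0.51 for odorant receptors and 0.08 and 0.09 for all probe sets. Taar7e under odor and Taar7b under vehicle were the highest of the 8 and exceeded 72.3% and 75.6% of odorant receptors, while Taar7d under odor and Taar7a under vehicle were the lowest and exceeded 20.6% and 12%. All 8 therefore lay inside the bulk of the odorant receptors. With each array centred on the median of its odorant receptors, an alternative chosen after the data were seen, the differences of Taar7b were 1.00 and 1.22 and those of Taar7e 1.03 and 0.82 under odor and vehicle. Of these only Taar7e under odor passed (adjusted p = 0.0459 by limma, against 0.185, 0.0585 and 0.11), while Taar7a was lower and passed in both conditions (-1.22 and -2.37, adjusted p = 0.0281 and 0.000105 by limma). With that centring 1 of the 8 genes was called higher and 1 lower under odor, and 0 higher and 3 lower under vehicle.

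**Figure D2:**
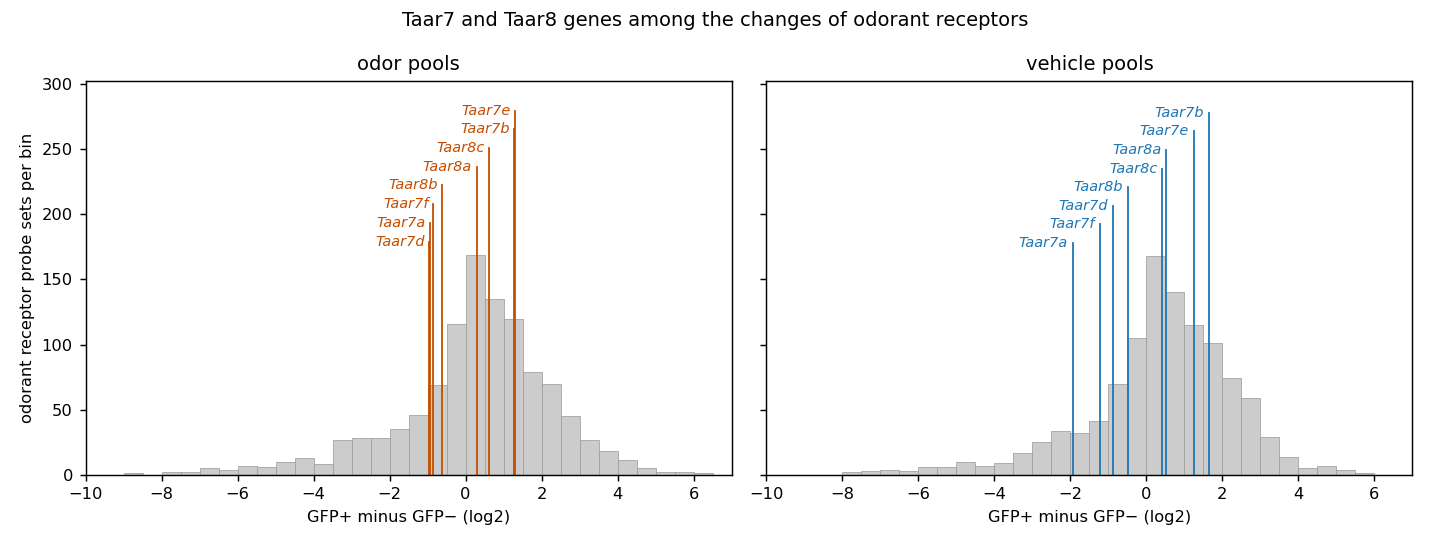
Number of odorant receptor probe sets (vertical axis, 1091 in all, bins of 0.5) by their mean GFP+ minus GFP- difference in log2 units (horizontal axis), in odor pools on the left and vehicle pools on the right, with a line at the value of each Taar7 and Taar8 gene. The 8 lines span -0.96 to 1.30 in odor and -1.94 to 1.64 in vehicle pools, inside the bulk of the odorant receptors.

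Other cells were unevenly shared between the fractions, and these values stand beside every difference above. All 3 measured macrophage and monocyte markers and all 3 microvillar cell markers fell in GFP+ cells of both conditions, as did 3 of 5 markers of basal and cycling cells. Summed macrophage signal was 7.82 to 8.92 in odor GFP+ and 14.90 to 15.90 in odor GFP- samples, and 8.36 to 8.72 in vehicle GFP+ and 15.70 to 16.59 in vehicle GFP- samples. Microvillar sums were 7.33 to 8.30 in odor GFP+ and 11.32 to 13.34 in odor GFP- samples, and 7.23 to 8.18 in vehicle GFP+ and 10.65 to 12.69 in vehicle GFP- samples. Of 4 markers of sustentacular (supporting) cells 0 were called under odor and 2 fell under vehicle, among them Sult1c1, a sulfotransferase, which differed by -1.49 under odor (adjusted p = 0.156 by limma) and -2.45 under vehicle (adjusted p = 0.00995 by limma). Sustentacular sums were 11.36 to 15.56 in odor GFP+ and 13.64 to 15.72 in odor GFP- samples, and 13.07 to 15.34 in vehicle GFP+ and 13.59 to 16.00 in vehicle GFP- samples. Under odor and vehicle Cyp1a2 differed by -1.04 and -1.50, Cyp2g1 by -0.92 and -0.81 and Ermn by -0.49 and -0.48. Of these only Cyp1a2 under vehicle was called. Taar7a and Taar7f were also called lower under vehicle only. A call in 1 condition alone is no difference between conditions, and Sult1c1, Taar7a and Taar7f were not called between odor and vehicle pools. All 7 neutrophil markers (Lcn2, Ngp, S100a8, S100a9, Retnlg, Mmp8 and Camp) fell in GFP+ cells of both conditions, and their summed signal was 8.99 to 9.64 in odor GFP+ and 18.72 to 19.98 in odor GFP- samples, and 8.59 to 9.88 in vehicle GFP+ and 19.04 to 20.47 in vehicle GFP- samples. All 4 immature neuron markers (Gap43, Gng8, Dpysl3 and Stmn1) also fell in both, with sums of 10.46 to 12.13 in odor GFP+ and 12.73 to 14.65 in odor GFP- samples, and 10.15 to 12.99 in vehicle GFP+ and 13.12 to 15.45 in vehicle GFP- samples. The 7 mature neuron markers had 0 calls in either condition, with sums of 20.57 to 21.75 in odor GFP+ and 20.48 to 21.62 in odor GFP- samples, and 20.50 to 21.77 in vehicle GFP+ and 20.36 to 21.60 in vehicle GFP- samples. The brightest of them, Stoml3, averaged 19.56 in odor GFP+ samples, where the brightest signal of an array was 18.65 to 19.85. Differences so near the top of the scale may be compressed, so an equal share of mature neurons is not shown. Background control medians were 5.14 to 6.34, so a marker's log2 signal does not by itself show that its cells were present. In odor GFP+ samples the neutrophil markers averaged from 4.21 (Camp) to 7.79 (Ngp). The part of other cells in the differences of Taar7 and Taar8 genes was not tested, and fewer cells that use a receptor and less of its RNA per cell cannot be told apart in these samples.

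Because both fractions of a pool hold the same mice, the genes could also be set against each other within pools, which removes what acts alike on all of them. Compression by background does not: it acts on Taar7a and the Taar8 genes and less on the brighter ones. The GFP+ minus GFP- difference of each gene was compared with that of each other gene over the 10 pools, odor and vehicle together, by an exact two-sided sign-flip permutation test. Among the 4 genes above background on all arrays (Taar7b, Taar7d, Taar7e and Taar7f) 4 of 6 pairs differed at an adjusted p under 0.05. Of the 22 pairs with at least 1 of the 4 dim genes 18 did, which gives 22 of 28 in all. In the pairs with a dim gene, the parts of unequal compression and unequal change in the size of a difference cannot be told apart. The smallest p that 10 pools allow is 0.00195, and 14 pairs reached it, with an adjusted p of 0.00391. The test takes the pools as independent. Deviations of odor and vehicle GFP+ samples of 1 number correlated at 0.157 to 0.862, highest for number 5, and samples of different numbers were not compared. Independence of the pools is therefore not shown. With the odor and vehicle pools of each number averaged, 5 values remain, the smallest possible p is 0.0625 and no pair can pass. There the same 4 pairs of bright genes had 1 sign in 5 of 5 numbers and reached that p.

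The 4 pairs of bright genes that differed each set Taar7b or Taar7e against Taar7d or Taar7f. Taar7d minus Taar7e was -2.20 ± 0.51 (SD, n = 10 pools, adjusted p = 0.00391 by the exact permutation test), below 0 in 10 of 10 pools, with means of -2.27 in odor and -2.13 in vehicle pools. These are the genes whose start windows above share 49 of 50 coding bases. Taar7e exceeded Taar7f, its neighbour on the other side, by 2.31 ± 0.49 in 10 of 10 pools. Taar7b exceeded Taar7d by 2.39 ± 0.47 and Taar7f by 2.50 ± 0.60, each in 10 of 10. For Taar7a, which was dim in vehicle GFP+ samples, the difference minus that of Taar7b, its neighbour on the opposite strand, was -2.91 ± 1.07 and below 0 in 10 of 10 pools. Each of the pairs just named had an adjusted p of 0.00391 by the exact permutation test. The Taar7 genes thus alternated along the cluster: lower (Taar7a), higher (Taar7b), lower (Taar7d), higher (Taar7e) and lower (Taar7f) in GFP+ cells by the sign of their mean difference, of which Taar7d did not pass its own test in either condition and Taar7a and Taar7f only in vehicle pools.

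Within each direction the Taar7 genes did not differ past the threshold. Taar7b and Taar7e differed by 0.19 ± 0.55 (adjusted p = 0.32 by the exact permutation test), and Taar7d and Taar7f by 0.11 ± 0.58 (adjusted p = 0.771 by the exact permutation test). Taar7a minus Taar7d was -0.52 ± 0.96 and Taar7a minus Taar7f -0.41 ± 0.60, with adjusted p-values of 0.103 and 0.0856 by the exact permutation test. Taar8a and Taar8c differed by -0.11 ± 0.61 (adjusted p = 0.583 by the exact permutation test). Pairs with Taar8b are not ranked, because it was at or below background on 7 of 20 arrays. A p above the threshold does not show that 2 genes act alike.

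**Figure D3:**
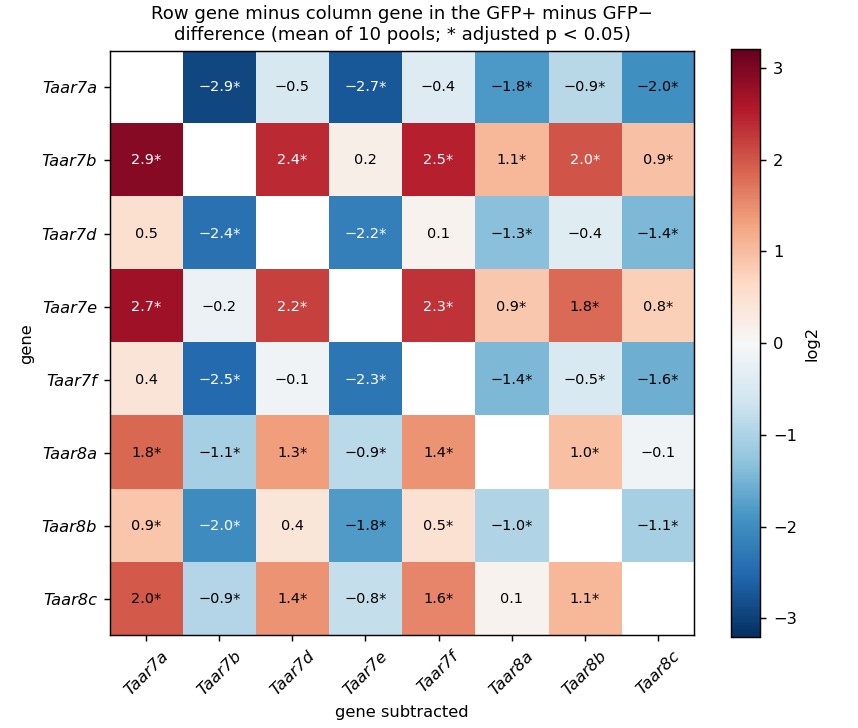
Mean over 10 pools of the GFP+ minus GFP- difference of the row gene less that of the column gene, in log2 units, coloured from blue (row gene lower) to red (row gene higher), with a star where the adjusted p of the exact permutation test is under 0.05. Taar7b and Taar7e form the red rows against Taar7a, Taar7d and Taar7f, and 22 of the 28 pairs carry a star, 18 of them with at least 1 of the dim genes Taar7a, Taar8a, Taar8b and Taar8c.

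The single-copy genes around them set the scale of the family. Of 7 other Taar genes 4 rose and 1 fell in GFP+ cells of odor pools and 3 rose and 1 fell in vehicle pools. Taar4, a receptor for phenylethylamine, differed by 3.50 under odor and 3.45 under vehicle (adjusted p = 2.12e-05 and 2.21e-05 by limma), and Taar9, at the end of the cluster next to Taar8c, by 3.04 and 2.51 (adjusted p = 0.000435 and 0.00175 by limma). Taar3 rose by 2.49 and 2.03, and Taar2 differed by -2.56 and -2.60, all past the threshold. For Taar2 these may be understated in size, since it was below the background control median on 3 of 5 odor GFP+ and 3 of 5 vehicle GFP+ arrays. Taar6, the neighbour of Taar7a, differed by -0.71 and -0.62 and did not pass. Taar5, a receptor for trimethylamine, rose by 0.84 under odor and had 0.35 under vehicle, with signals of 3.07 to 5.78, below the background control median of their array on 20 of 20 arrays. Taar1, which olfactory neurons are not known to use, differed by 0.33 and -0.02 and did not pass.

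**Figure D4:**
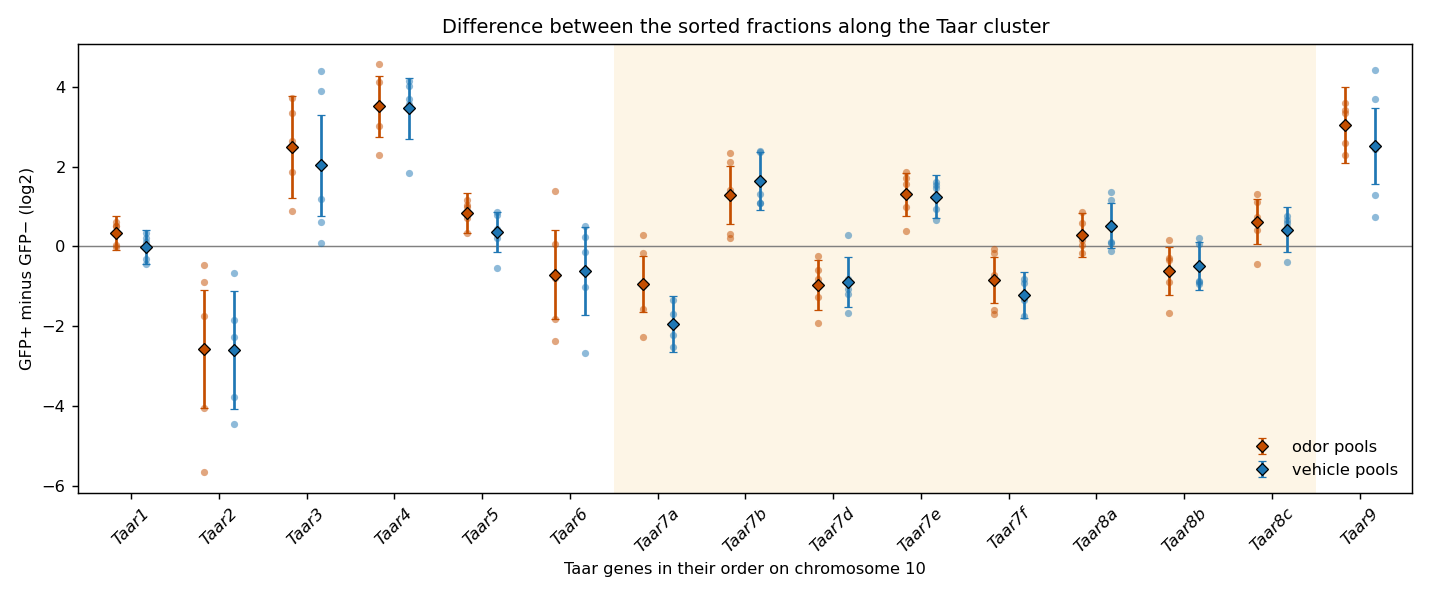
GFP+ minus GFP- difference in log2 units (vertical axis) for the 15 Taar genes in their order on chromosome 10 (horizontal axis, equal steps), in odor pools (orange, left of each pair) and vehicle pools (blue), with diamonds for the mean, bars for its 95% confidence interval from limma and dots for the 5 pools. The shaded Taar7 and Taar8 genes lie between -1.94 and 1.64, while Taar4 and Taar9 reach 3.50 and 3.04 under odor. Mean differences of the shaded genes change sign from gene to gene. Taar7d and the Taar8 genes did not pass the test in either condition, and Taar7a and Taar7f passed only in vehicle pools.

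Genes of the shared machinery did not pass the test in either condition. Among 10 genes of the transduction cascade 0 were called, with a median difference of 0.49 under odor and 0.50 under vehicle. The brightest of them, such as Gnb1 at 19.41 in odor GFP+ samples, were near the top of the scale, where differences may be compressed. Slc24a4, a sodium, calcium and potassium exchanger of the cilia, had 0.67 and 0.92, and Ano2, the calcium-activated chloride channel, had 0.62 and 0.83. Among 9 genes of receptor trafficking and choice 0 were called, with Rtp2, a receptor transporter, at 0.85 and 0.87. Among 4 zone genes 0 were called, with Nqo1, an enzyme of dorsal neurons, at 0.38 and 0.53 and Ncam2, an adhesion molecule of ventral neurons, at 0.25 and 0.63. At an unadjusted p under 0.05 there were 1 and 2 of the 10 transduction genes, 0 and 0 of the 9 trafficking genes and 0 and 1 of the 4 zone genes under odor and vehicle.

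Likeness to other receptors was measured as the root mean square difference of the GFP+ minus GFP- values over the 10 pools. For Taar7b the nearest chemosensory receptor was Taar7e (0.55), followed by Olfr1231 (0.56) and Olfr109 (0.61). For Taar7e the nearest were Olfr960 (0.41), Olfr982 (0.44) and Olfr610 (0.51). Taar7f was the nearest to Taar7a (0.70), ahead of Olfr923 and Olfr154 (both 0.80). Taar7d was nearest to Olfr338 (0.43), Olfr768 (0.48) and Olfr1032 (0.52), and Taar7f to Olfr714 (0.49), Olfr338 (0.52) and Taar7d (0.56). The nearest receptors were at 0.44 to 0.50 for Taar8a (Olfr1000, Olfr926 and Olfr606), 0.45 to 0.49 for Taar8b (Olfr223, Olfr317 and Olfr1047) and 0.41 to 0.43 for Taar8c (Olfr1259, Olfr1390 and Olfr583). Among the 10 nearest of all 19572 probe sets with a symbol, 5.65% of which are chemosensory receptors, 8 were such receptors for Taar7b and 4 for Taar7e, 1 each for Taar7d and Taar8c, and 0 for Taar7a, Taar7f, Taar8a and Taar8b.

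The main question of the exposure was whether the odor changed the receptors of GFP+ neurons. None of the 8 genes passed in any of the 3 comparisons of odor with vehicle, where 0% of all 22206 probe sets were called. Taar7a came nearest: its GFP+ minus GFP- difference was -0.94 ± 1.03 in odor pools and -1.94 ± 0.45 in vehicle pools (SD, n = 5 each). The difference between these, 1.00 with a 95% confidence interval of 0.01 to 1.99, had an adjusted p of 1 by limma and an unadjusted p of 0.0471, the 1 unadjusted p under 0.05 among the 8. For the other 7 genes this value lay between -0.36 (Taar7b, -1.40 to 0.67) and 0.38 (Taar7f, -0.44 to 1.20). Across all probe sets 1.21% had an unadjusted p under 0.05 in this comparison, and 4.03% of odorant receptors.

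Set directly against each other, odor and vehicle GFP+ cells had Taar7a at 6.05 ± 0.73 and 5.27 ± 0.82 (SD, n = 5 each), a difference of 0.78 with a 95% confidence interval of -0.20 to 1.75. Odor GFP+ samples reached from 5.23 to 6.93 and vehicle GFP+ samples from 4.48 to 6.48, so the groups overlapped. Taar7b had 10.98 ± 0.92 in odor and 11.05 ± 0.89 in vehicle GFP+ cells, and Taar7e 9.73 ± 0.68 and 9.63 ± 0.57 (SD, n = 5 each). The largest difference in GFP- cells was that of Taar8c, at 5.56 ± 0.46 in odor and 6.06 ± 0.41 in vehicle samples (SD, n = 5 each), or -0.50 with an interval of -1.20 to 0.20. In both fractions 0 of the 8 genes had an unadjusted p under 0.05, and the adjusted p was 1 by limma for all 16 comparisons. Among all probe sets 0.275% in GFP+ and 0.135% in GFP- cells had an unadjusted p under 0.05. The intervals in GFP+ cells, from the fit without a block, reached from -1.19 to 1.75 over the 8 genes, so changes of up to about that size remain possible.

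**Figure D5:**
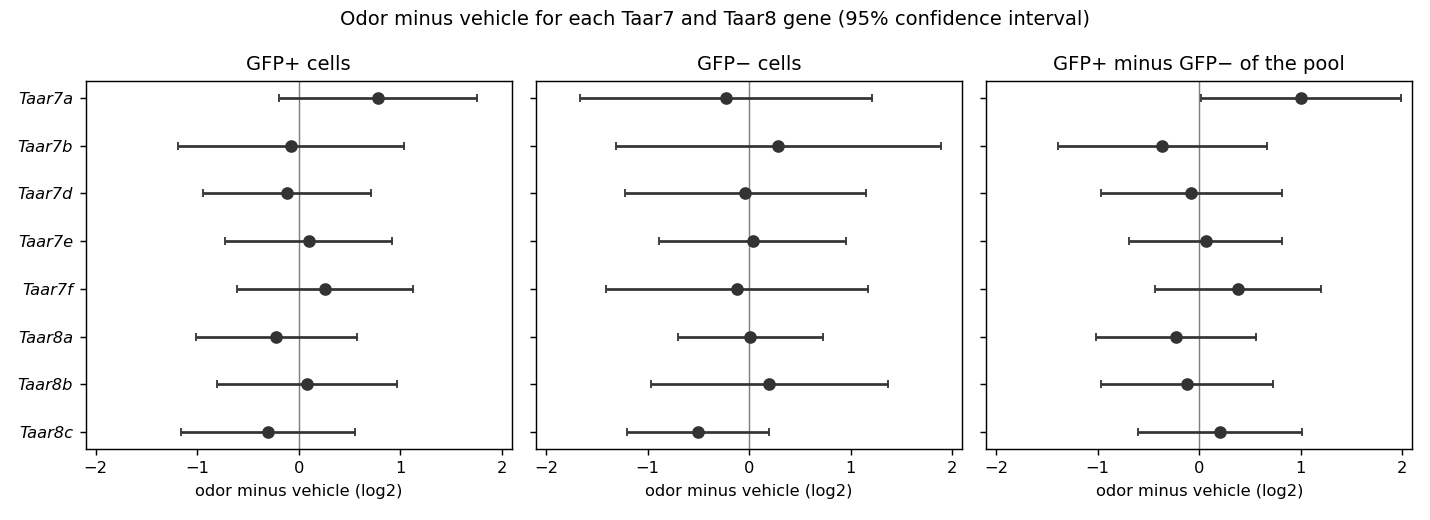
Odor minus vehicle in log2 units (horizontal axis) for each Taar7 and Taar8 gene (vertical axis), in GFP+ cells on the left, GFP- cells in the middle and for the GFP+ minus GFP- difference of the pools on the right, with points for the estimate and bars for the 95% confidence interval from limma. All intervals span 0 except that of Taar7a on the right, 0.01 to 1.99.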

How the data were processed

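Samples were grouped by condition and fraction from the labels, and GFP+ and GFP- samples that share a condition and a number were taken as fractions of the same 3 mice. Biotinylated cRNA from 50 to 100 ng of RNA was hybridised, per the labels' protocols, and the submitters' processing notes name Affymetrix Expression Console for the array signals. Its version and algorithm were not given in the sources used here. In 1 table the authors deposited signals whose range shows a log2 scale, and these log2 values were used as deposited. Of 28846 rows 6640 were controls, and 22206 probe sets for genes were tested with no filter on dim ones, 19572 of them with 1 gene symbol in the platform annotation and 2634 with none. At most 0.00901% of values were equal between any 2 arrays. Precision is limited by the number of arrays, and detection calls were not used.

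GFP+ minus GFP- differences of the 10 pools were fitted in 1 model with lmFit and eBayes of limma 3.58.1 under R 4.3.3, testing odor pools, vehicle pools and their difference. Odor was set against vehicle within each fraction on 10 samples without a block. In the main fits p-values were adjusted over all probe sets by Benjamini-Hochberg. The fits were also run on simulated data with known changes. Those values were drawn independently for each array, without effects shared within a pool, so that run does not test the pairing. Start windows were aligned globally with Biopython 1.88 (match 2, mismatch -1, gap opening -3, extension -0.5). The genes followed, the gene lists and the tests were chosen with earlier results of these data known. All 8 Taar7 and Taar8 genes and all other Taar genes are named, with at most 4 further genes of each other gene list given with values. Cell type markers are named as lists. Values of the 4 sustentacular markers and of Stoml3, Camp and Ngp were picked for printing after they were seen. Likeness was ranked by a fixed rule. Odor and vehicle samples share numbers. Deviations from the group mean, compared between odor and vehicle samples of 1 number, had correlations of 0.251, 0.522, 0.349, 0.157 and 0.862 in GFP+ cells, all over 0.1, and of 0.144, -0.378, 0.277, 0.196 and 0.842 in GFP- cells. Numbers were taken to be shared between GFP+ samples on this ground, but the main fits of odor against vehicle used no block. The group means include the arrays of replicate 5, which stood apart, and samples of different numbers were not compared. Sharing of numbers 1 to 4 is therefore not shown. A fit with the number as a block, in both fractions, was run as an alternative. Centring on the median of all genes was also tried, and centring on that of odorant receptors, chosen after seeing the data. Further settings were quantile normalization, leaving out the dimmest 25%, an intensity trend, array weights and a term for the arrays of replicate 5. Both pools numbered 5, or each pool in turn, were left out. Variances were also moderated, and p-values adjusted, over receptors alone. A last setting took both fractions of a pool as unpaired.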

Additional observations from a re-analysis of the deposited data

Results flagged for a closer look

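The 8 genes were checked in 48 sets of 5 values in all for a sample far from the others, and chance flags about 1 in 20 such sets. Of 6 found, 4 were arrays of replicate 5 in GFP- cells: Taar7d at 11.19 in odor GFP- replicate 5, where the others had 8.92 to 9.28, Taar7e at 9.55 in odor GFP- replicate 5 (others 7.95 to 8.33) and at 9.64 in vehicle GFP- replicate 5 (others 7.90 to 8.36). The other was Taar8b at 7.72 in vehicle GFP- replicate 5, where the others had 5.24 to 5.48. Taar8a stood at 6.70 in odor GFP+ replicate 2, where the others had 6.35 to 6.40. The GFP+ minus GFP- difference of Taar8c was -0.39 in vehicle pool 2, where the others had 0.48 to 0.76.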

How the results depend on the processing

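The sort in odor pools called 2 of the 8 genes, against 1 with quantile normalization and 5 with array weights. It called 1 to 3 when 1 pool was left out, and 5 with variances moderated and p-values adjusted over receptors alone. With both fractions of a pool taken as unpaired, and each condition fitted alone, it called 0. The sort in vehicle pools called 4, against 0 with both fractions taken as unpaired in the same way and 3 to 5 when 1 pool was left out. No called difference reversed under these settings. Centring on odorant receptors called 1 gene higher and 1 lower in odor pools, against 2 higher and 0 lower as reported, and 0 higher and 3 lower in vehicle pools, against 2 and 2. The other scalings, filters and terms gave counts within 1.5 times. Comparisons of odor with vehicle called 0 genes under every setting, the replicate block included, where the Taar7a difference in GFP+ cells was 0.78 with an adjusted p of 0.993 by limma. Pairs of genes that differed numbered 22, 18 with quantile normalization, 21 without both pools numbered 5, 0 with the odor and vehicle pools of 1 number averaged, where no p under 0.0625 is possible, and 20 to 23 when 1 pool was left out. Centring arrays on their median moved the median of all probe sets by 0.21 in odor and 0.24 in vehicle pools, and centring on odorant receptors by -0.28 and -0.43. Taar7a, Taar8a, Taar8b and Taar8c are limited by their low signal over background.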
